A study of Mus musculus with 2 samples.

Results

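Skeletal muscle myosin is held in order by a small set of proteins of the thick filament and its attachments, and 8 of their genes are described here: Mybpc1, Mybpc2, Mybpc3, Mybph, Myom1, Myom2, Ttn and Smpx. They were read from every probe set whose only gene symbol in the array annotation was 1 of these 8. All 8 were found among the 18193 genes read by probe sets with 1 symbol, on 18 of 34945 such probe sets. The samples were muscle of the diaphragm from mouse embryos of the C57/BL6 strain at stage E18.5, shortly before birth. 1 array held RNA of the RP58+/+ genotype, labelled wild type, and 1 array held RNA of the RP58-/- genotype, labelled knockout. The extraction note in the labels speaks of a culture, while the design text and tissue label name dissected muscle, which is followed here. RP58 is a zinc finger protein that represses transcription, and its gene is now named Zbtb18. The sources used here do not say how the RP58 allele was made, in which cells it is lost, or how many embryos gave each sample.

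The myosin-binding proteins C are bound to the thick filament in regular stripes, where they tether myosin heads and regulate contraction. Mybpc1 encodes the slow skeletal form, Mybpc2 the fast skeletal form and Mybpc3 the cardiac form, while Mybph encodes the smaller, related protein H. Myom1 and Myom2 encode myomesins, which cross-link thick filaments at the M-band in the middle of the sarcomere. Titin, from Ttn, is a giant elastic protein that runs from the Z-disc to the M-band and binds both myosin-binding protein C and myomesin. Smpx encodes a small, X-linked protein of striated muscle that is known for its response to stretch.

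Values are deposited log2 signals, so 1 unit is a doubling, and each difference is that of RP58-/- minus RP58+/+. With 1 array per genotype there is no replicate and no test, and no p-value can be given. A size rule was used in its place: a value counts as lower or higher when the difference reaches 1.5-fold, which is 0.58 on the log2 scale. Where 1 value per gene was needed, the probe set with the highest mean signal was taken, provided that this mean reached a floor of 5.52, the 40th percentile of all probe sets. As the only repeat measurement, probe sets of the same gene were compared over 5675 genes: their differences had a pooled SD of 0.28 around the gene's mean. That spread covers the probes and isoforms, and not embryos, dissection or hybridisation.

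RP58 is known to act on E-box-like sites, so the promoters of the members are shown before their signals. The windows reach from 250 bases before to 50 bases after the annotated start (RefSeq, GRCm38.p6), and 7 of the 8 members had one in the table used; Myom2 did not. The motifs searched on both strands were ACATCTG for RP58, CANNTG for the E-box bound by MyoD-type factors, CATTCCA for TEAD factors, and the MEF2 site. A match to ACATCTG always contains an E-box. The 3 myosin-binding protein C genes are printed because they differ most in signal, from the largest difference of the members to none by the size rule, and capitals mark every motif match. All 3 are written 5′ to 3′ on the strand of the gene.
Mybpc1, chr10:88605103-88605402, minus strand: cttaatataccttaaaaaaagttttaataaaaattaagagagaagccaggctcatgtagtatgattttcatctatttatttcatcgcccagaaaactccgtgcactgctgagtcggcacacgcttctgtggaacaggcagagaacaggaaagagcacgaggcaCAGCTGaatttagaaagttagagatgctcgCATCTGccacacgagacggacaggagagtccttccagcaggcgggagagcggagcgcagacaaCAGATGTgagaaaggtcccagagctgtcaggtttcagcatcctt
Mybpc2, chr7:44524620-44524919, minus strand: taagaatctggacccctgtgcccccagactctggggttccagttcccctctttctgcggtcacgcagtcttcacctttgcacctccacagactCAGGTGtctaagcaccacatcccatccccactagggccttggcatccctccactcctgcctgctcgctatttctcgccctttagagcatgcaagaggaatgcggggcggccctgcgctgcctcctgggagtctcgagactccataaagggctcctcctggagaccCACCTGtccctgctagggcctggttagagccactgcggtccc
Mybpc3, chr2:91117894-91118193, plus strand: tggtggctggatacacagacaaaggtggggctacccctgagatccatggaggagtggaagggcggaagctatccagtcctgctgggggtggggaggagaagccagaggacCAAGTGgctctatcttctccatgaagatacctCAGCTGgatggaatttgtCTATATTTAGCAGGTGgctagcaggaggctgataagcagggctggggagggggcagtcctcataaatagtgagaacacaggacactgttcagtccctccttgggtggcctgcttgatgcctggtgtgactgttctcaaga

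ACATCTG was found in 1 of the 7 member promoters, that of Mybpc1, on the reverse strand with its first base 7 bases past the start, and in 4.43% of all 32851 promoters in the table. An E-box was found in 6 of 7 members, all but Smpx, and in 72.3% of all promoters, so its presence sets no member apart. Mybpc2 held 2 E-boxes, Mybpc1 and Mybpc3 held 3 each, and the last capital run of Mybpc3 joins a MEF2 match to an E-box. A MEF2 match was also found for Ttn, making 2 of 7 members against 3.19% of all promoters. CATTCCA was found in 0 of 7 members and in 4.29% of all promoters. These are matches of letters in a short window, not measured binding sites.

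**Figure D1:**
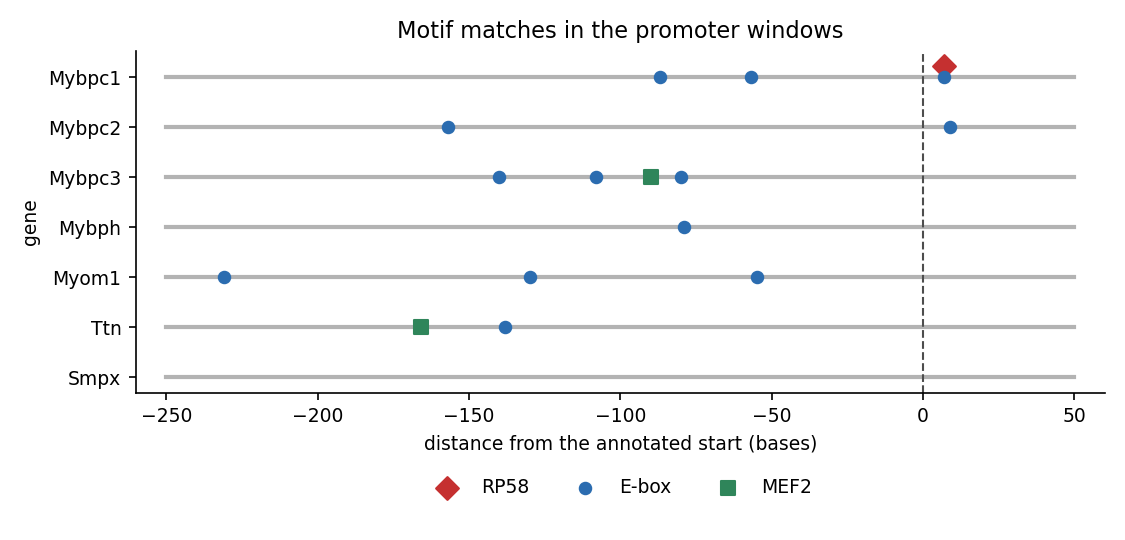
Position of each motif match (x axis, bases from the annotated start) in the promoter window of 7 member genes (rows), with diamonds for the RP58 motif, circles for E-boxes and squares for MEF2 sites. The RP58 match of Mybpc1 lies 7 bases past the start, on top of an E-box, and Smpx has no match.

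All members but Mybpc3 were lower on the RP58-/- array and Mybpc3, the cardiac form of myosin-binding protein C, was level. By the brightest probe set of each gene, 7 of 8 members passed the size rule as lower and 0 as higher, where 6.51% of all 14093 genes above the floor were lower and 3.83% were higher. At 2-fold 6 of 8 were lower, against 2.31% of all genes. The median difference of the 8 genes was -1.44, against -0.003 over all genes. Without a choice of probe set, 13 of the 18 member probe sets were lower and 0 were higher, where 4.81% of all 34945 probe sets with 1 symbol were lower and 2.71% were higher. Of the 18, 16 passed the floor, and the 2 under it differed by -0.03 (1438372_at) and -0.01 (1446450_at).

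**Figure D2:**
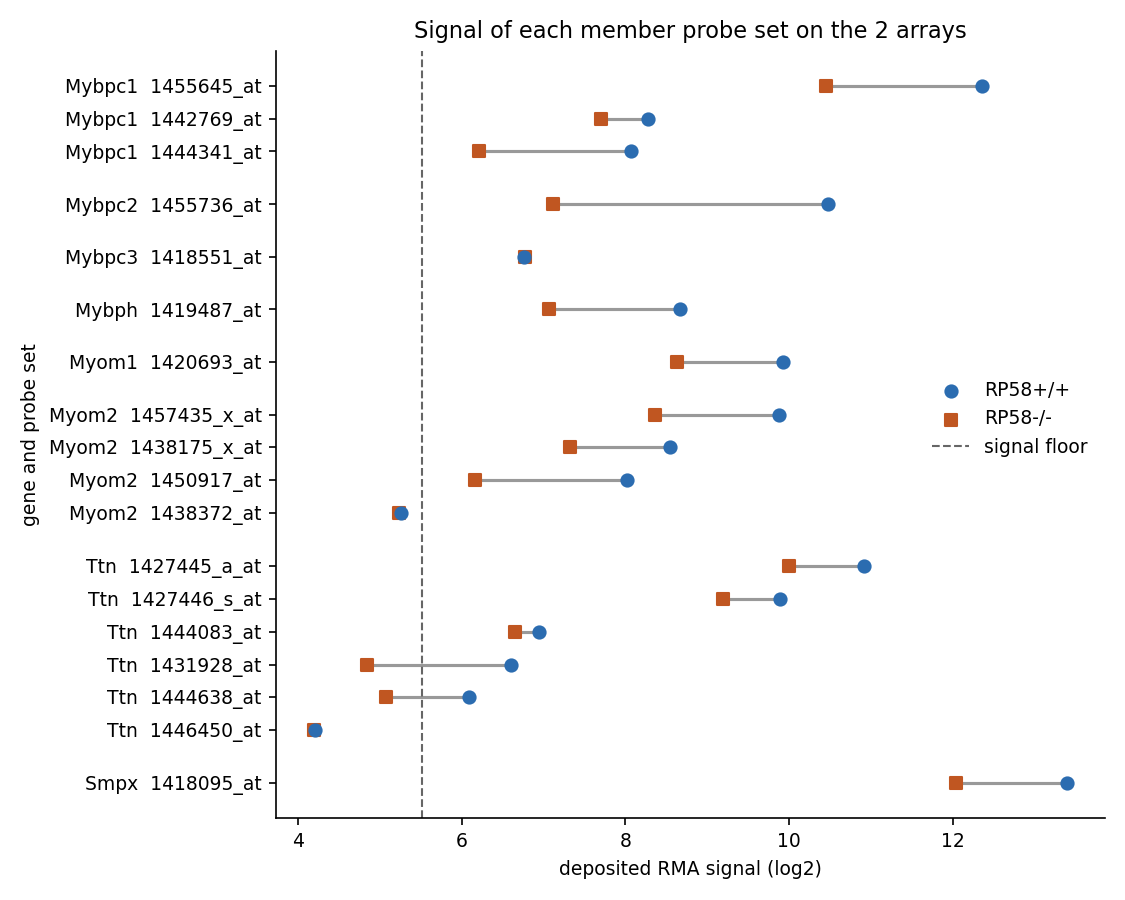
Deposited log2 signal (x axis) of each of the 18 member probe sets (rows, grouped by gene) on the RP58+/+ array (circles) and the RP58-/- array (squares); the dashed line is the floor of 5.52. The squares lie well to the left of the circles for Mybpc2, Mybph, Myom1, the 3 brighter Myom2 probe sets, Smpx and 2 of the 3 Mybpc1 probe sets. The gap is smaller for 1442769_at of Mybpc1, varies among the Ttn probe sets, and is near 0 for Mybpc3 and the 2 probe sets under the floor.

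Among the myosin-binding proteins, the fast form had the largest difference of all members. Mybpc2 was read by 1 probe set (1455736_at), with a log2 signal of 10.48 on the RP58+/+ array and 7.12 on the RP58-/- array. The difference of -3.36 is a 10.3-fold lower signal, and Mybpc2 stood 5th from the lowest of all 14093 genes. Both signals lay above the floor, so the size does not rest on a signal below it.

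Mybpc1, the slow skeletal form, had a difference below 0 on all 3 of its probe sets, and 2 of them passed the size rule. Its brightest (1455645_at) was at 12.36 on the RP58+/+ array and 10.45 on the RP58-/- array, a 3.76-fold lower signal (-1.91). A dimmer probe set (1444341_at) gave nearly the same difference, from 8.07 to 6.21 (-1.86). Another (1442769_at) went from 8.28 to 7.70, which is 1.49-fold lower and just short of the size rule. The mean over the 3 was -1.45 ± 0.76 (SD over probe sets, n = 3), so the probe sets of this gene differed more than the pooled SD of 0.28.

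Mybpc3, the cardiac form, was at 6.76 on the RP58+/+ array and 6.77 on the RP58-/- array (1418551_at), a difference of 0.01. The 3 paralogues of myosin-binding protein C thus ran from 10.3-fold lower to level. Mybpc3 has 1 probe set on this array, and RMA compresses the differences of dim probe sets. Of a list of heart markers, 8 were above the floor. Of these, 7 were within the size rule and 1, Sln at -0.78, was lower, with a median of 0.10. The brightest were Sln (13.91 for RP58+/+, 13.12 for RP58-/-) and Tnnt2 (10.50 and 10.37). Whether any of these signals came from heart was not tested. Myh6, Nppa and Tnni3 of the same list lay under the floor.

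Mybph, whose protein shares its domains with the C proteins, was at 8.67 on the RP58+/+ array and 7.07 on the RP58-/- array (1419487_at). Its signal was 3.04-fold lower (-1.60), a difference between those of Mybpc1 and the myomesins by their brightest probe sets. This place depends on the probe set: the mean of Mybpc1 was -1.45, and Myom2 was at -1.86 by 1450917_at. Mybphl, a related gene that is no member, had signals of 5.81 and 5.92, close to the floor on both arrays.

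The 2 myomesin genes were lower to a like extent. Myom1 was at 9.93 on the RP58+/+ array and 8.63 on the RP58-/- array (1420693_at), which is 2.46-fold lower (-1.30). Myom2, the myomesin of adult fast fibres and heart, had 4 probe sets. Its brightest (1457435_x_at) went from 9.88 to 8.36, a 2.86-fold lower signal (-1.52). The others above the floor went from 8.55 to 7.32 (1438175_x_at, -1.23) and from 8.02 to 6.16 (1450917_at, -1.86). Their mean was -1.54 ± 0.32 (SD over probe sets, n = 3), close to the pooled spread. The ending _x_at marks probe sets that can also bind other transcripts, and the 1 without it above the floor gave the largest of the 3 differences. The last Myom2 probe set (1438372_at) lay under the floor on both arrays, at 5.26 and 5.23. The 2 myomesin genes, by their brightest probe sets, differed by 0.22 from each other, while the Myom2 probe sets above the floor ran from -1.86 to -1.23.

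Titin was lower by less than the other members that passed the size rule, and its probe sets were uneven. The brightest of its 6 probe sets (1427445_a_at) was at 10.91 on the RP58+/+ array and 10.00 on the RP58-/- array, which is 1.89-fold lower (-0.92). The next (1427446_s_at) went from 9.89 to 9.19, 1.63-fold lower (-0.70). The sources used here do not say which exons of this very long transcript each probe set reads. Another (1444083_at) went from 6.94 to 6.66, a difference of -0.28 that is within the size rule. A pair of dim probe sets had larger differences, from 6.60 to 4.84 (1431928_at, -1.76) and from 6.09 to 5.07 (1444638_at, -1.01). Both passed the floor only through their RP58+/+ signal, so sets as dim as these on both arrays would not have been kept, and their sizes carry less weight. The last (1446450_at) lay under the floor on both arrays, at 4.20 and 4.20. Over the 3 above the floor on both arrays the mean was -0.63 ± 0.32 (SD over probe sets, n = 3). Without the _a_at and _s_at probe sets, which read several transcripts, the brightest left was 1444083_at, and titin no longer passed the size rule.

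Smpx, the small muscle protein, was bright on both arrays, at 13.40 for RP58+/+ and 12.03 for RP58-/- (1418095_at). Its signal was 2.57-fold lower (-1.36), close to the values of the myomesins. Smpx lies on the X chromosome, and the arrays differed in sex-linked signals: Xist, the transcript behind X inactivation, was at 11.47 for RP58+/+ and 6.96 for RP58-/-, and the Y-linked gene Eif2s3y at 3.59 and 8.58. Over 446 X-linked genes above the floor the median difference was -0.06. By the size rule 11.7% of them were lower, against 6.51% of all 14093 genes above the floor. Genotype and sex-linked signal cannot be told apart with 1 array each. That limit holds for every difference between the arrays given here, not only for that of Smpx.

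**Figure D3:**
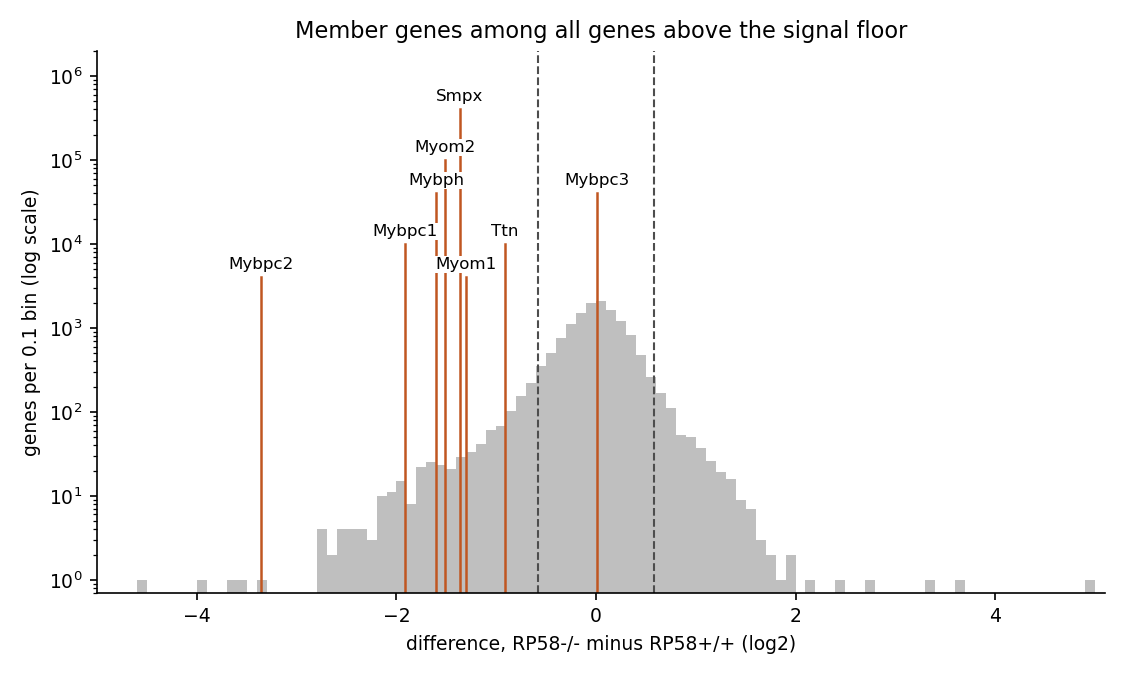
Number of genes (y axis, log scale) by difference, RP58-/- minus RP58+/+ (x axis, log2), for 14093 genes above the floor in grey, with a line at each member gene (its height only spaces the labels) and dashed lines at the 1.5-fold size rule. Mybpc2 lies in the sparse left tail at -3.36, 6 members lie between -1.91 and -0.92, and Mybpc3 lies at the centre.

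The 3 genes whose pair of signals lay nearest to that of Mybpc2, by straight-line distance over the 2 log2 values, were Pvalb, Cym and Tmem182, at distances of 0.28, 0.37 and 0.47. Their differences were -3.69, -3.52 and -2.70, against -3.36 for Mybpc2, so that of Tmem182 was the furthest from it. Pvalb, the calcium buffer of fast fibres, was at 10.76 for RP58+/+ and 7.07 for RP58-/-. Signals of different probe sets are not levels on 1 scale, so this nearness is a description of 2 arrays. The 3 genes were picked by these same signals, so like differences follow from the choice.

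Other proteins of the M-band differed as the myomesins did in part. Of 9 such genes listed, 7 had a probe set above the floor, 5 were lower and 0 higher, and the median was -1.40. Lrrc39, which binds myosin at the M-band, had a difference of -1.78. The ubiquitin ligase genes Trim63 (MuRF1), which binds titin at the M-band, and Trim54 had differences of -1.61 and -1.40. The creatine kinase gene Ckm, part of which is bound at the M-band, was at -1.42, and Fhl2 at -0.72. Both that were not lower are close relatives or partners of the members. Myom3, the third myomesin, went from 6.90 to 6.79 (-0.10), and Obsl1, which links titin and myomesin, from 8.27 to 8.30 (0.03) with its 5 probe sets between -0.10 and 0.13.

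Most of titin's binding partners were lower, and its signalling partners in autophagy were not. Of 14 listed genes, 13 were above the floor, 8 were lower and 0 higher (median -0.90); Fhl2 and Trim63 are in this list and in the preceding one. Tcap, the cap of titin at the Z-disc, had a difference of -2.15, and Actn2, the Z-disc actinin, of -1.72. The titin spring proteins Ankrd2 and Ankrd23 were at -1.24 and -1.04, with Fhl1 at -0.94 and the chaperone Cryab at -0.90. Csrp3, a Z-disc protein, was at -0.50, and the titin-bound protease gene Capn3 was at -0.48, with another probe set at -1.33. Ankrd1, of the same family as Ankrd2, was close to the floor on both arrays (-0.05). The autophagy receptors Nbr1 and Sqstm1, which join the signalling complex at the titin kinase, were at 0.11 and 0.49, within the size rule.

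The myosin chains that the members bind were lower for some chains. Of 15 genes of myosin chains and thick filament assembly, 14 were above the floor, 7 were lower and 0 higher (median -0.58). The count was 6 under median centring, 5 under loess centring (without Myl1 and Mylpf, which lay near the 1.5-fold limit) and 5 of 13 without _s_at, _x_at and _a_at probe sets. The heavy chains Myh1 (adult fast) and Myh8 (neonatal) were at -1.99 and -1.94. Of the 3 Myh1 probe sets above the floor, the others were at -2.12 and 0.15. Without _s_at, _x_at and _a_at probe sets Myh1 was read at 0.15, with the opposite sign. The light chains were uneven: Myl3 was at -1.87, Myl2 at -0.82, Myl1 at -0.64 and Mylpf at -0.59, the last 2 at signals near the top of the scale. Unc45b, the chaperone that folds myosin in muscle, was at -1.74. Smyd1, which works with it, was at -0.54 by its brightest probe set, and its 4 probe sets ran from -1.95 to 0.07. Its partner Hsp90aa1 was at 0.17, and embryonic Myh3 at -0.55.

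Other proteins built of immunoglobulin domains, as the members from Mybpc1 to Ttn are, had a median near 0. Of 10 listed, 8 were above the floor, 2 were lower and 0 higher, and the median was -0.04. The lower genes were the Z-disc genes Myot, at -2.10, and Mypn, at -1.72, although the other probe set of Mypn was at -0.23. Speg, a kinase of the triad, was at 0.07, Palld at -0.22 and Mylk at 0.02.

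Costamere genes, which join the sarcomere to the membrane, were mostly within the size rule. Of 12, all above the floor, 0 were lower and 1 was higher, with a median of -0.13, and 7 lay below 0. The higher gene, Tln1 (talin), was at 0.65, with another probe set at -0.35. Dmd, the dystrophin gene, was at -0.55, Tln2 at -0.44, Flnc at -0.36 and Vcl (vinculin) at 0.16. The signal of a bulk sample does not say which cells a transcript came from.

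The order among the C proteins was set beside that of other fibre-type genes. All 8 fast fibre genes above the floor were lower, from -3.69 (Pvalb) to -0.59 (Mylpf), with a median of -1.71; the difference of -3.36 for Mybpc2 lies near the low end of that range. Mylpf lay at the limit and was not counted under median or loess centring or at 2-fold (7 of 8), and without _s_at, _x_at and _a_at probe sets 6 of 7 were lower and Myh1 was at 0.15. Between them lay Actn3 at -2.13, Myh1 at -1.99, Tnnt3 at -1.72, Tnni2 at -1.69, Atp2a1 at -1.60 and Tnnc2 at -1.06. Of 8 slow fibre genes, 3 were lower and 0 higher (median -0.54). These were Myl3 (-1.87), Myl2 (-0.82) and Myoz2 (-0.63), while the slow troponin genes Tnni1, Tnnc1 and Tnnt1 were at -0.50, -0.29 and -0.21. Under loess centring Myoz2 (-0.583) fell just short of the limit, and 2 of 8 slow fibre genes were lower. The slow form Mybpc1, at -1.91 by its brightest probe set, lay close to Myl3 and below the other slow fibre genes. Its probe sets ran from -1.91 to -0.58, so this place depends on the probe set. As means over probe sets, Mybpc1 was at -1.45 and Myl3 at -1.54. No test of fast against slow genes was possible.

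**Figure D4:**
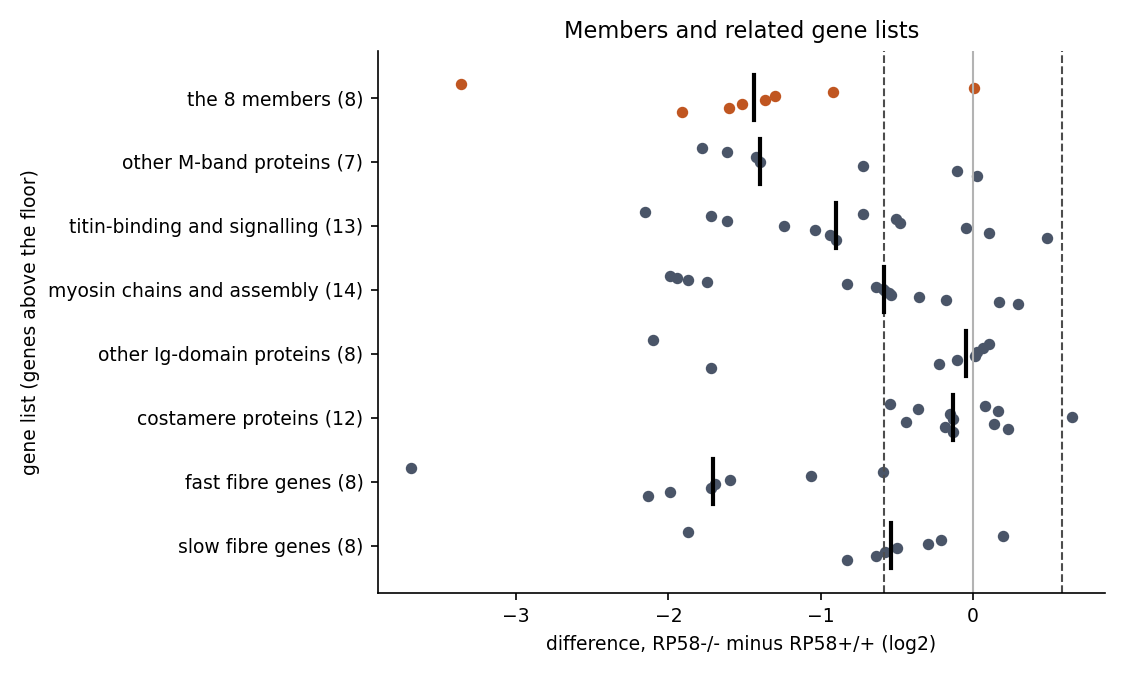
Difference, RP58-/- minus RP58+/+ (x axis, log2), of each gene above the floor in the 8 members and in 7 related lists (rows, with the number of genes), as points; thick bars are medians and dashed lines the 1.5-fold size rule. The members, other M-band genes and fast fibre genes have medians of -1.44, -1.40 and -1.71, while costamere genes and other Ig-domain genes have medians of -0.13 and -0.04, the latter with 2 genes, Myot and Mypn, far to the left.

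General muscle markers and markers of neighbouring tissues differed on the same arrays. Of 10 skeletal muscle markers, all above the floor, 7 were lower, and values ran from -1.94 (Myh8) to 0.09 (Myog) around a median of -1.09; Acta1, skeletal actin, was at 13.95 and 13.36. The structural markers Acta1 and Ckm were bright on both arrays, as the tissue label says, while Myod1, the dimmest of the list, was at 7.25 and 7.07. Liver genes were higher for 7 of 12 above the floor (median 0.75), and the log2 of their summed signal was 16.42 for RP58+/+ and 16.96 for RP58-/-. Lung epithelium genes were higher for 4 of 6, with a median of 0.63 and summed signals of 9.39 and 11.65. That sum was led by Sftpc, at 7.65 for RP58+/+ and 11.30 for RP58-/-, the largest difference of the list (3.64). Mesothelium genes were higher for 4 of 8, with a median of 0.60 and summed signals of 13.00 and 13.63. Leukocyte genes were higher for 3 of 9 (median 0.46; 14.73 and 15.21). Connective tissue and smooth muscle genes had medians of 0.20 and 0.12. The part of these tissues in the lower signals of the members was not tested. In such a bulk sample, fewer muscle fibres and less RNA per fibre cannot be told apart.

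**Figure D5:**
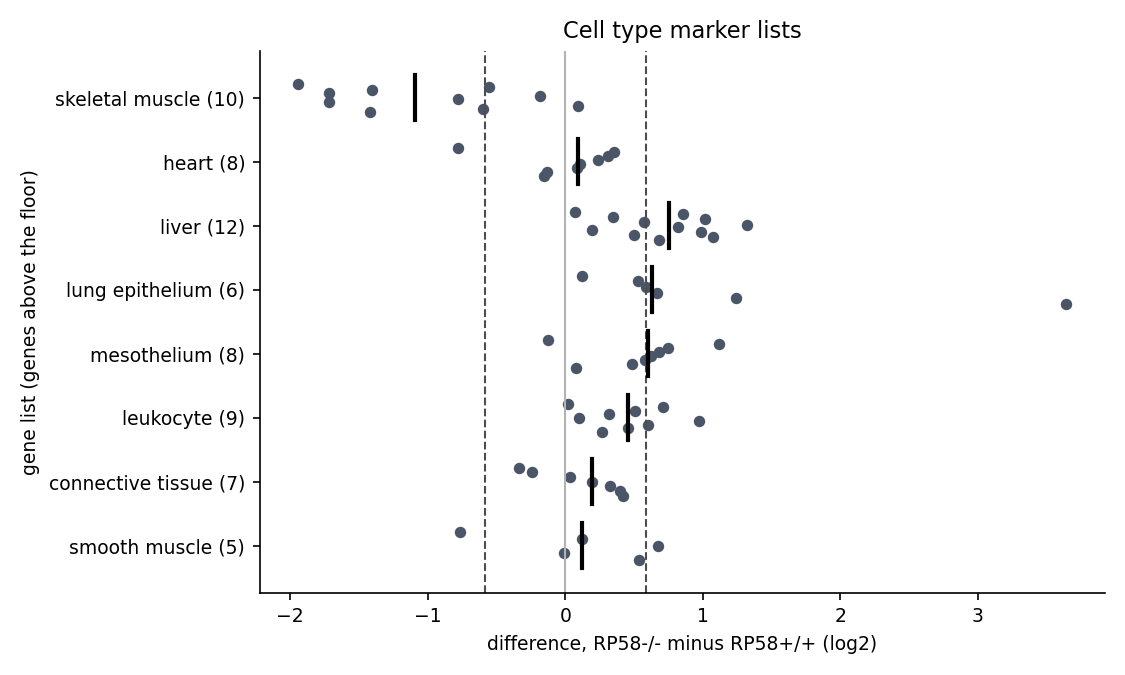
Difference, RP58-/- minus RP58+/+ (x axis, log2), of each marker gene above the floor in 8 cell type lists (rows, with the number of genes), as points; thick bars are medians and dashed lines the 1.5-fold size rule. Skeletal muscle markers have a median of -1.09, and liver, lung epithelium and mesothelium markers have medians of 0.75, 0.63 and 0.60.

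The check of the targeted gene did not settle the labels. Zbtb18 was read by 1 probe set, at 8.91 on the RP58+/+ array and 9.21 on the RP58-/- array. The sources used here do not say which part of the gene was changed, or whether this probe set reads it. All directions therefore rest on the labels. The 24 probe sets of poly-A control RNAs differed by -1.17 to -0.46 (median -0.75), while the 18 of hybridisation controls had a median of -0.04. Each difference given here is thus relative to the median gene. Scaled to the poly-A controls, an alternative added after the data were seen, the median of all genes was 0.74. On that scale 5 of 8 members were lower by the size rule, and Myom1 (-0.55) and Ttn (-0.17) were not. Mybpc3 (0.76) was higher, as was the median gene. The shares of all genes past the rule were not computed on that scale.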

How the data were processed

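RNA of 2 samples, 1 per genotype, was profiled on Affymetrix mouse arrays, whose probe sets matched a larger array design than the one the design text names. Per the series' design text, the authors computed signals with RMA (background correction, quantile normalisation and probe summary). The submitters' processing notes list Affymetrix Expression Console 1.1. All deposited values are log2 signals per probe set. RMA gives no detection call, compresses dim and very bright signals, and removes differences in total mRNA. The sorted values of the 2 arrays differed by at most 0.12. Precision is limited by the number of arrays.

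Probe sets were named from the platform annotation, and those with several symbols or none were left out. Of 34945 with 1 symbol, 34741 had an Entrez identifier in the RefSeq table of GRCm38.p6, and 0 symbols changed. Differences, the 1.5-fold rule, the floor and the lists were computed in Python 3.11.15 with pandas 2.3.3 and statsmodels 0.14.6, and the functions were tested on simulated data. Members and lists were chosen with earlier results of these data known. Besides the members, genes named were all list genes past the size rule and up to 3 others per list, with marker genes for ranges; a few further genes were named after their values were seen. The alternatives were the mean over probe sets, no floor or the 60th percentile, median or loess centring (fraction 0.3), no _s_at, _x_at or _a_at probe sets, and a 2-fold rule; scaling to the poly-A controls was added after seeing the data.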

Additional observations from a re-analysis of the deposited data

How the results depend on the processing

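No paired analysis was possible because each genotype had 1 array, and for the same reason none could be left out. There were 7 alternatives that kept the scale relative to the median gene or changed probe sets, floor or rule. Under these, 6 to 7 of the 8 members were lower. Only the 2-fold rule had a share over all genes computed beside it, 2.31% lower. Medians, given for 6 of the 7, ran from -1.48 to -1.40. No member that had passed the size rule turned its sign. Of the list genes, Myh1 did so, to 0.15 without _s_at, _x_at and _a_at probe sets. The count of member probe sets lower ran from 9 (of 12, without _s_at, _x_at and _a_at probe sets) to 13. The only share over all probe sets was that without a floor, 4.81% lower. Single members moved by more than 0.28 in 3 cases: Mybpc1 to -1.45 as a mean over probe sets, and Myom2 to -1.86 and Ttn to -0.28 without those probe sets. At 2-fold, 6 members, 5 titin-binding genes, 4 myosin and assembly genes and 1 slow fibre gene were lower. Without _s_at, _x_at and _a_at probe sets, 5 of 7 titin-binding genes and 1 of 10 costamere genes were lower. Tln1 was no longer higher as a mean over probe sets or at 2-fold, where 0 costamere genes were higher. Scaled to the poly-A controls, which was added after seeing the data, the members' median was -0.69, 8 of 16 member probe sets were lower and the Ttn probe set 1427446_s_at was at 0.044, with its sign turned. On that scale 3 titin-binding genes, 4 myosin and assembly genes and 1 slow fibre gene were lower. Fhl2 (0.02), Myl1 (0.11), Mylpf (0.16) and Myoz2 (0.11) turned their sign. No share over all genes was computed on that scale to set beside these counts.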
